A study of Mus musculus with 16 samples.

Results

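Cerebellum and frontal cortex of adult mice without a working Upf3b gene (Upf3b-KO) were compared with each other, to describe which genes and isoforms separate these brain regions in its absence. The comparison used 7 of the 16 bulk RNA-seq libraries of the series, chosen by their labels: 3 of Upf3b-KO cerebellum (replicates 2, 3 and 4) and all 4 of Upf3b-KO frontal cortex. The other libraries, 4 of control littermates (Ctrl) per region, served only to ask whether a difference between the regions was also present with Upf3b intact. Upf3b-KO cerebellum replicate 1 was left out because it held 64981 counts, against 28656208 to 35238677 in the 7 libraries used. The knockout is a null allele present in the whole animal, so neurons, glia and any other cells of the tissue all carry it. Adult age is all that the study gives. The study took both regions from 4 mice of each genotype, so that libraries of the 2 regions may share mice. The labels tie no library to a mouse, and the tests treated the libraries as separate.

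Upf3b takes part in nonsense-mediated decay (NMD), a pathway that degrades messenger RNAs with a stop codon in an unusual position, such as upstream of a remaining exon junction. Frontal cortex is built from glutamatergic projection neurons and local inhibitory neurons that arise in the telencephalon, under transcription factors such as Emx2. Cerebellum arises at the border of midbrain and hindbrain and is dominated by small glutamatergic granule cells, with large inhibitory Purkinje cells as the output of its cortex and deep nuclei as the output of the whole. Beyond their cell types, brain regions differ in the exons that they join, for example in the subunits of glutamate receptors.

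Several genes used different exons in the knockout regions, among them Gria1, Grin1 and Clta, whose total level was alike, and Map2, whose level also differed. The letters that tell these forms apart are given here because a count per transcript rests on them. Each line shows 15 bases on either side of an exon junction, 5′ to 3′ in the sense of the gene, read from GRCm39 at the exon ends of GENCODE vM39. Capitals mark the exon after the junction. In the AMPA receptor subunit gene Gria1, the transcripts take either of 2 alternative exons of 115 bases, called flip and flop, which encode part of the ligand-binding region. The flip exon lies at chr11:57201434-57201548 (plus strand) and the flop exon at chr11:57200595-57200709, both in coding sequence.
Gria1, preceding exon into flip: ggggtccgccctgagAGGTCCCGTAAACCT
Gria1, preceding exon into flop: ggggtccgccctgagAAATCCAGTAAACCT
Gria1, flip into the next exon: gactccggaagtaagGACAAGACCAGTGCT
Gria1, flop into the next exon: ggaggtgactccaagGACAAGACCAGTGCT

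In the gene of the obligatory NMDA receptor subunit, Grin1, a 63-base coding exon near the start of the protein, the N1 cassette, lies at chr2:25201355-25201417 (minus strand). A 111-base coding exon in the intracellular tail, the C1 cassette, lies at chr2:25184450-25184560. The 2 transcripts that separated the regions differ in both and in their last splice site. The junction printed for C1 skipped therefore also enters the last exon at another site than the form with C1 does.
Grin1, N1 included: gagcgtgagtccaagAGTAAAAAAAGGAAC
Grin1, N1 skipped: gagcgtgagtccaagGCAGAGAAGGTGCTG
Grin1, C1 included: aggaagaacctgcagGATAGAAAGAGTGGT
Grin1, C1 skipped: aggaagaacctgcagCAGTACCATCCCACT

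The last set shows cassette exons of other genes. Clta encodes clathrin light chain A, and its 36-base coding exon lies at chr4:44031400-44031435 (plus strand). Map2 encodes a microtubule-associated protein of dendrites, and its 93-base coding exon at chr1:66470686-66470778 (plus strand) is known to add a microtubule-binding repeat.
Clta, 36-base exon included: cctgattggttatgtCACAAACATAAACCA
Clta, 36-base exon skipped: cctgattggttatgtGGCAGCAGAAGAAGC
Map2, 93-base exon included: cctaaggggggtcagGTTAGGATTTTAAAC
Map2, 93-base exon skipped: cctaaggggggtcagGTACAAATTGTTACT

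The labels were checked before any comparison. Upf3b itself stood at 0.566, 0.229, 0.857 and 0.586 CPM (counts scaled to the total of the library) in Upf3b-KO frontal cortex and at 0.628, 0.965 and 0.617 CPM in Upf3b-KO cerebellum. The Ctrl means were 14.8 ± 0.64 CPM (SD, n = 4) in frontal cortex and 22.7 ± 1.2 CPM (SD, n = 4) in cerebellum, so that all 7 libraries carried little Upf3b, with overlapping levels in the 2 regions. The regional markers described below fitted the labelled tissue in every library used. In this bulk RNA, however, marker lists of structures outside the labelled tissue were also present, and their values are given beside the results they touch. Libraries of a group differed little, with a coefficient of variation beyond counting of 2.75% in Upf3b-KO frontal cortex and 2.53% in Upf3b-KO cerebellum, and the p-values measure only this spread, which may be in part technical. In bulk tissue, fewer cells of a type and less RNA per cell cannot be told apart. A count of 3 in a library, used as a floor below, equals 0.0851 to 0.105 CPM, a limit of counting error only.

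Of 18965 genes tested, 1313 (6.92%) were higher in Upf3b-KO cerebellum and 2985 (15.7%) were higher in Upf3b-KO frontal cortex, at an adjusted p under 0.01 and a difference over 2-fold (quasi-likelihood test of edgeR, adjusted after Benjamini and Hochberg). Genes that meet both limits are referred to as called, or as higher in a region. All cerebellar libraries lay beyond all cortical ones in 1303 of the 1313 and in 2961 of the 2985, and the groups did not overlap in 13312 of all genes tested. The median difference over all genes was −0.0091 on the log2 scale (cerebellum minus frontal cortex, as are all log2 differences below). Among 15952 protein-coding genes, 1050 were higher in cerebellum and 2457 in frontal cortex, together 22.0% of those tested. The share was 33.7% among 1901 long noncoding RNA genes, of which 196 were higher in cerebellum and 444 in frontal cortex.

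**Figure D1:**
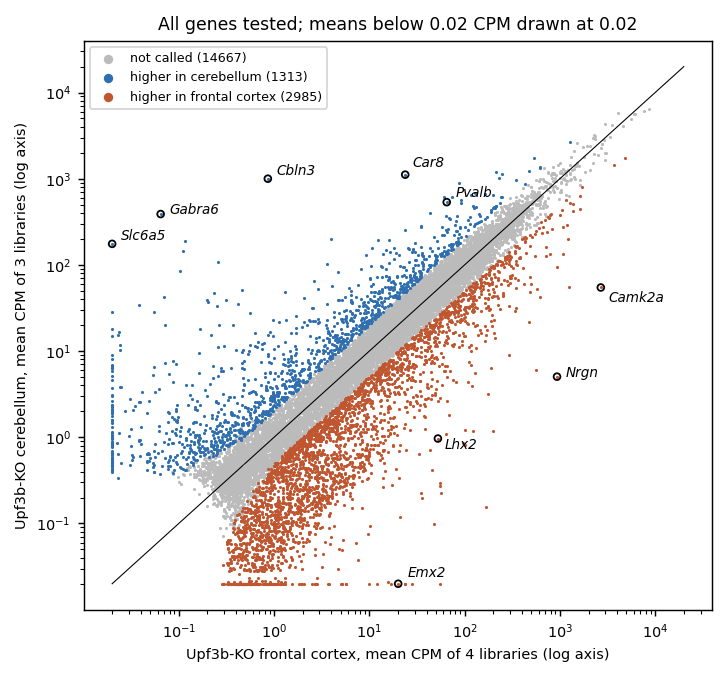
Mean level of each of the 18965 genes tested in Upf3b-KO frontal cortex (x axis, mean CPM of 4 libraries, log scale) and in Upf3b-KO cerebellum (y axis, mean CPM of 3 libraries, log scale), with means below 0.02 CPM drawn at 0.02. Blue points are the 1313 genes higher in cerebellum, orange points the 2985 higher in frontal cortex, grey points were not called, and the line marks equal levels.

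Genes that were nearly off in cortex and high in cerebellum led the upper side of this comparison. The rule took the largest differences among genes with at least 20 CPM in the higher region and no overlap between the regions. By it, the 10 named genes were Slc6a5, Gabra6, Ppp1r17, Hoxb5, Pcp2, Cbln3, Cnpy1, Nrk, Lhx1os and Dao. Gabra6 (ENSMUSG00000020428, chr11:42197264-42211910, minus strand, GRCm39), the GABA-A receptor subunit typical of granule cells, stood at 0, 0.131, 0.0659 and 0.0617 CPM in the cortical libraries and at 384, 393 and 391 CPM in the cerebellar ones. The 4 cortical libraries held 8 counts of Gabra6 together, and the ratio of the regions was 6182 (95% exact counting interval 3137 to 14320, adjusted p = 4.53e-28 by edgeR). Cbln3 (ENSMUSG00000040380, chr14:56116370-56121849, minus strand), a secreted cerebellin of granule cells, read 0.715, 1.11, 0.725 and 0.894 CPM in frontal cortex against 1008, 1008 and 987 CPM in cerebellum, a log2 difference of 10.17 (SE 0.036, adjusted p = 5.71e-31 by edgeR). Both genes are thus read almost entirely from cerebellum.

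Purkinje cell genes followed the same pattern. Pcp2, a Purkinje cell protein that acts on G proteins, stood at 0.277, 0, 0.115 and 0.0521 CPM in frontal cortex and at 146, 146 and 148 CPM in cerebellum, a ratio of 1287 (95% counting interval 793 to 2435, adjusted p = 4.24e-24 by edgeR). Ppp1r17, an inhibitor of protein phosphatases in Purkinje cells, had a ratio of 1587 (962 to 2837), from 0.117 ± 0.042 (SD, n = 4) to 187 ± 3.2 CPM (SD, n = 3). Lhx1os, transcribed beside the Purkinje cell factor gene Lhx1, had a mean of 0.0701 CPM in cortex and of 42.7 CPM in cerebellum. Cnpy1, which is known from the signaling center between midbrain and hindbrain, had 0.103 and 86.0 CPM, and Nrk, a protein kinase gene on the X chromosome, had 0.0385 and 34.1 CPM. Dao, D-amino acid oxidase, which breaks down the NMDA receptor co-agonist D-serine in hindbrain glia, stood at 0.0544 CPM in cortex and at 28.8 CPM in cerebellum. That the groups did not overlap in these genes was a condition of being named.

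Slc6a5 and Hoxb5 stood apart from the other named genes because their levels were lower in the Ctrl cerebellum. Slc6a5 (ENSMUSG00000039728, chr7:49559894-49613604, plus strand) encodes the glycine transporter GlyT2, which marks inhibitory glycinergic neurons of brainstem, spinal cord and cerebellum. The gene is in the list of Golgi cells and interneurons of the cerebellum as well as in that of brainstem and deep nuclei. Slc6a5 had 0 counts in all 4 Upf3b-KO cortical libraries and 174, 175 and 178 CPM in the cerebellar ones, at least 1777-fold higher against the floor of 3 counts per library (adjusted p = 2.86e-23 by edgeR). In Ctrl cerebellum its level was 35 ± 1.1 CPM (SD, n = 4). Hoxb5, a position gene of hindbrain and spinal cord, had 2 counts over the cortical libraries and 28.6, 25.7 and 29.9 CPM in Upf3b-KO cerebellum, a ratio of 1779 (95% counting interval 492 to 14700), while Ctrl cerebellum had 0.0418 ± 0.034 CPM (SD, n = 4).

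**Figure D2:**
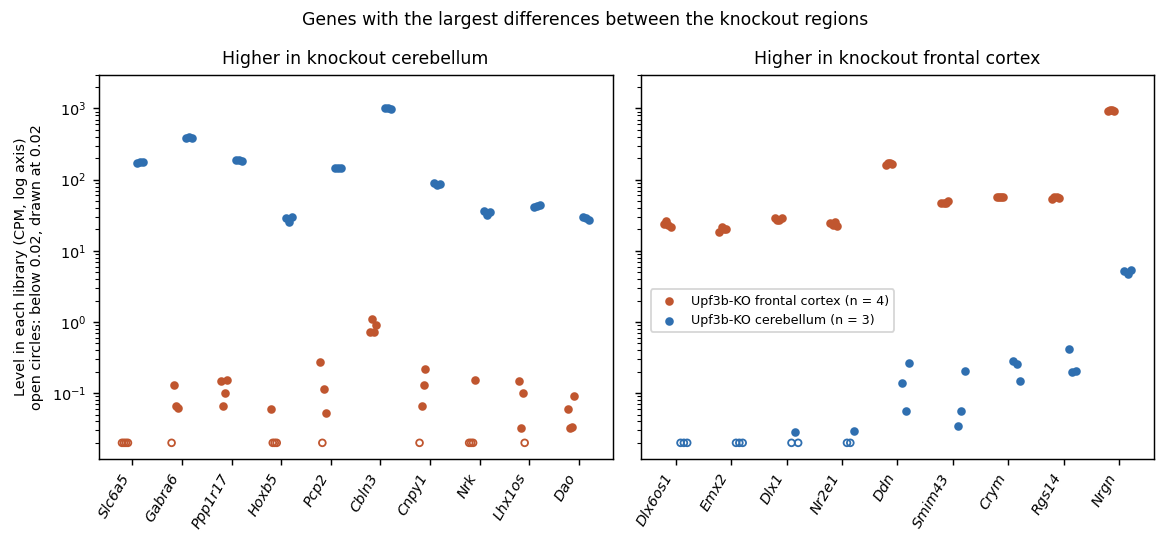
Level in every library of 10 named genes higher in cerebellum and 9 higher in frontal cortex (y axis, CPM, log scale), orange for the 4 Upf3b-KO frontal cortex libraries and blue for the 3 Upf3b-KO cerebellum libraries. Open circles mark values below 0.02 CPM, drawn at 0.02, and libraries of a region lie close together except where a few counts set the level.

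On the cortical side, 9 genes named by the same rule are described, Dlx6os1, Emx2, Dlx1, Nr2e1, Ddn, Smim43, Crym, Rgs14 and Nrgn. Emx2 (ENSMUSG00000043969, chr19:59446804-59453789, plus strand), which patterns the cortex, read 18.1, 21.7, 20.5 and 20 CPM and had 0 counts in the 3 cerebellar libraries, at least 191-fold lower there. Dlx6os1, a noncoding RNA of the Dlx gene cluster that marks forebrain inhibitory neurons, had 23.5 ± 1.9 CPM (SD, n = 4) and again 0 counts in cerebellum, at least 225-fold lower. Dlx1, a factor of the same neurons, and Nr2e1, a nuclear receptor of forebrain progenitors, each had 1 count in cerebellum against 27.9 and 23.8 CPM in cortex. These 4 genes were therefore at or under the floor in the cerebellar libraries.

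The remaining named cortical genes were Nrgn, Ddn, Crym, Rgs14 and Smim43, of which Nrgn and Crym are in the list of projection neuron genes. Nrgn (ENSMUSG00000053310, chr9:37452275-37464689, minus strand), neurogranin, a calmodulin-binding protein of dendritic spines, read 921, 938, 951 and 925 CPM in cortex and 5.13, 4.65 and 5.38 CPM in cerebellum, a log2 difference of −7.55 (SE 0.029, adjusted p = 1.77e-30 by edgeR). Ddn, dendrin, a dendritic protein, stood at 167 ± 3.8 CPM (SD, n = 4) and 0.154 ± 0.1 CPM (SD, n = 3), a ratio of 1088 (95% counting interval 659 to 1944). Crym, a thyroid hormone-binding protein of deep-layer neurons, had 57.1 and 0.227 CPM, Rgs14, a regulator of G protein signaling, had 55.7 and 0.274 CPM, and Smim43, a small membrane protein, had 47.8 and 0.0991 CPM. Here too, levels that did not overlap between the regions were a condition of being named.

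Lists of known regional genes were then counted, with the share of all genes tested (6.92% and 15.7%) as the background. Of 19 granule cell genes, 17 were higher in Upf3b-KO cerebellum and none was higher in cortex, with a median log2 difference of 3.33. Neurod1, a granule neuron transcription factor, stood at 23.7, 22.5, 25.4 and 22.8 CPM in cortex and 256, 252 and 258 CPM in cerebellum (log2 difference 3.42, SE 0.031). Cbln1, the cerebellin that ties granule cell fibers to Purkinje cells, had 4.01 ± 0.42 CPM (SD, n = 4) in cortex and 199 ± 5.7 CPM (SD, n = 3) in cerebellum. Cadps2 and Nfia, at 164 and 133 CPM in cerebellum and 82.4 and 91.5 CPM in cortex, did not reach the 2-fold limit.

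Purkinje cell genes separated the regions nearly as often, with 17 of 20 higher in cerebellum, 1 higher in cortex and a median of 3.20. Car8, a carbonic anhydrase-related protein that acts on the IP3 receptor, had 23.6, 23.6, 22.5 and 25.5 CPM in cortex and 1118, 1109 and 1119 CPM in cerebellum (log2 difference 5.53, SE 0.022). Calb1, the calcium buffer calbindin, read 233, 236, 237 and 224 CPM against 1001, 1015 and 1014 CPM (log2 difference 2.10, SE 0.017). The exception was Foxp2, a transcription factor of Purkinje cells that cortical neurons also use, with 24.4 ± 0.85 CPM in cortex and 11.1 ± 0.43 CPM in cerebellum. Pcp4, at 429 CPM in cerebellum and 287 CPM in cortex, was not called.

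Glia and interneurons of the cerebellum were less uniform. Of 9 genes of Bergmann glia, the radial astrocytes of the Purkinje layer, 5 were higher in cerebellum and 4 were not called, with a median of 1.01. Gdf10, a growth factor of these cells, had 10.4 ± 0.55 CPM in cortex and 97.3 ± 2.5 CPM in cerebellum (log2 difference 3.21, SE 0.044), whereas Slc1a3, a glutamate transporter that cortical astrocytes share, had 1080 and 1297 CPM. Of 12 genes of Golgi cells, unipolar brush cells and molecular layer interneurons, 9 were higher in cerebellum and 1, Grm2, in cortex, with a median of 2.51. Pvalb, parvalbumin, which molecular layer interneurons and Purkinje cells share with cortical interneurons, stood at 64.9, 65.0, 65.7 and 64.3 CPM in cortex and at 533, 537 and 535 CPM in cerebellum.

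The factors that set position along the neural tube also separated the regions. Of 24 tested factors of midbrain and hindbrain, 21 were higher in Upf3b-KO cerebellum, 1 in cortex and 2 were not called, with a median log2 difference of 4.40. En2, which defines the midbrain and hindbrain border, read 0.119, 0.392, 0.0989 and 0.0617 CPM in cortex and 17.1, 17.7 and 19.6 CPM in cerebellum, a ratio of 110 (95% counting interval 71.7 to 178). Its partner En1 had 0 counts in cortex and 2.79, 2.27 and 2 CPM in cerebellum, at least 23.6-fold higher. Zic1, a zinc finger factor of granule cells, had 4.65 ± 0.59 in cortex and 82.9 ± 2.8 CPM in cerebellum (log2 difference 4.13, SE 0.061). The factor that was higher in cortex was Lhx9, with 7.80 against 1.95 CPM.

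Conversely, 24 of 28 telencephalic transcription factors were higher in Upf3b-KO frontal cortex and none was higher in cerebellum, with a median of −5.21. Tbr1, a factor of deep-layer neurons, stood at 45.5, 45.1, 44.9 and 47.6 CPM in cortex and 0.454, 0.369 and 0.441 CPM in cerebellum, a ratio of 109 (95% counting interval 80.5 to 153). Fezf2, which specifies neurons that project below the cortex, had 16.8 ± 0.74 CPM in cortex and 0 counts in cerebellum, at least 160-fold lower. The 4 factors that were not called were Bhlhe22, Cux1, Neurod2 and Tshz2, for which cerebellar levels of 52.1, 82.0, 41.5 and 24.7 CPM stood beside cortical ones of 59.1, 89.0, 50.1 and 43.9 CPM.

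Mature projection neuron genes were higher in cortex in 16 of 22 cases and higher in cerebellum in 3, with a median of −1.99. Camk2a, a kinase of excitatory synapses, had 2715, 2678, 2704 and 2667 CPM in cortex and 53.8, 54.3 and 56.0 CPM in cerebellum (log2 difference −5.63, SE 0.015). Slc17a7, the vesicular glutamate transporter of cortical and granule neurons, differed less, with 1192 ± 5.7 and 289 ± 3.4 CPM (log2 difference −2.06, SE 0.012). The members higher in cerebellum were Etv1, Sla and Nxph4, with 334, 29.9 and 25.9 CPM there and 108, 7.61 and 1.72 CPM in cortex. Cortical inhibitory neuron genes split, with 8 of 20 higher in cortex, among them Lhx6, Vip and Sst, and 7 higher in cerebellum, among them Pvalb, Calb2 and Slc32a1, for a median of 0.0055.

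**Figure D3:**
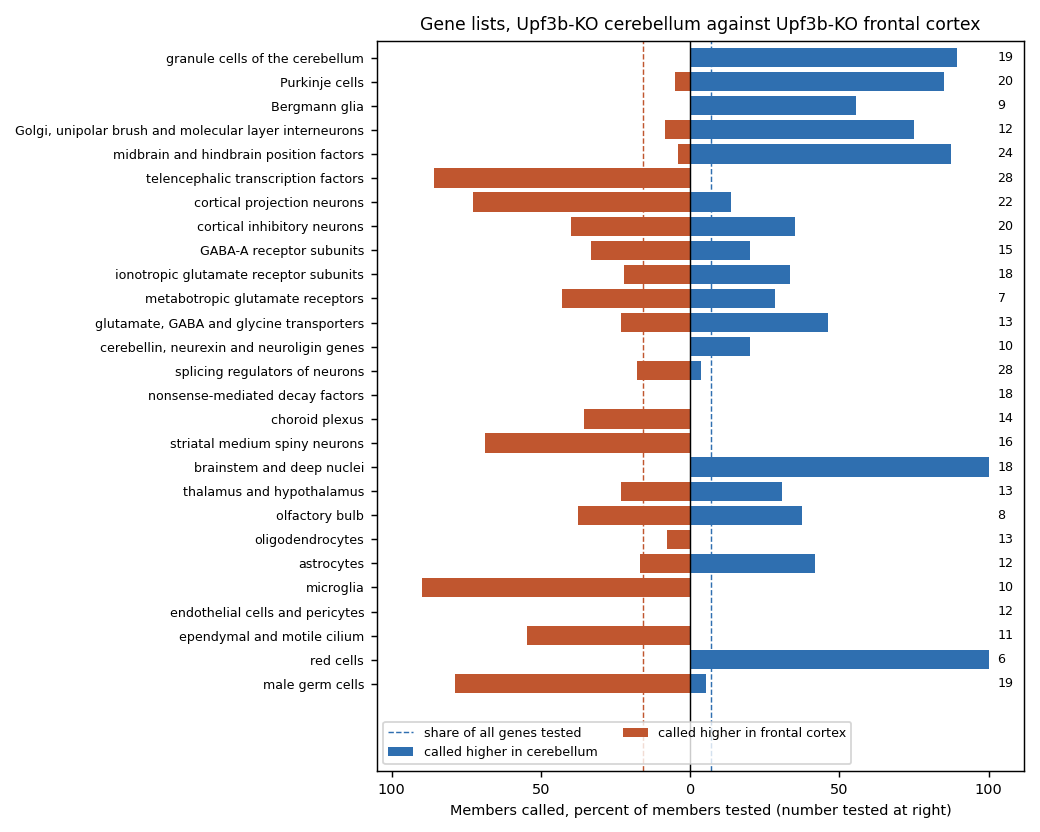
Share of the tested members of each of 27 gene lists called higher in Upf3b-KO cerebellum (blue, to the right) or in Upf3b-KO frontal cortex (orange, to the left), in percent, with the number tested at the right edge and dashed lines at the shares of all genes tested, 6.92% and 15.7%. All 18 brainstem genes and 17 of 19 granule cell genes lie on the cerebellar side, and 24 of 28 telencephalic factors lie on the cortical side.

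Receptors and transporters were counted by family. Of 15 GABA-A receptor subunits, 3 were higher in cerebellum, 5 were higher in cortex and 7 were not called, and in Ctrl 1 of the 3 and 4 of the 5 were called in the same direction. Gabra5, an extrasynaptic subunit of cortex and hippocampus, stood at 133, 138, 131 and 138 CPM in cortex and 31.4, 30.3 and 33.1 CPM in cerebellum (log2 difference −2.11, SE 0.035), with Ctrl means of 179 and 0.678 CPM. Gabra4, Gabrb1 and Gabrg3 were higher in cortex as well. Gabre and Gabrq joined Gabra6 on the cerebellar side, at 1.59 and 9.35 CPM against 0.0953 and 0.539 CPM. In Ctrl, Gabrq was higher in cortex, at 0.896 ± 0.32 CPM and 0.0639 ± 0.025 CPM (SD, n = 4), and the regional difference itself differed between the genotypes (interaction 7.87, adjusted p = 2.1e-14 by edgeR), while Gabre stood at 0.0231 and 0.0444 CPM. Per length, Gabra6 reached 386 TPM (counts per length, scaled to a fixed total) in cerebellum, where Gabra5 had 25.5 TPM.

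Of 18 ionotropic glutamate receptor subunits, 6 were higher in cerebellum (among them Gria4, Grik1, Grin2c, Grin2d and Grin3b) and 4 in cortex (Gria2, Grik5, Grin2a and Grin2b), and 8 were not called. Grin2b and Grin2c, alternative partners of Grin1 in the NMDA receptor, differed in opposite directions. Grin2b read 168, 164, 162 and 166 CPM in cortex and 12.7, 13.9 and 12.5 CPM in cerebellum (log2 difference −3.68, SE 0.037), whereas Grin2c read 42.1, 41.8, 43.4 and 39.5 CPM and 87.5, 89.0 and 89.7 CPM (log2 difference 1.07, SE 0.034). Grin1 itself was at 266 and 264 CPM. The AMPA receptor subunit Gria4 had 91.6 ± 2.3 CPM in cortex and 520 ± 4.2 CPM in cerebellum, while Gria2, which makes the channel impermeable to calcium, stood at 740 ± 3.5 CPM in cortex and 244 ± 2.6 CPM in cerebellum. Per length, Gria2 led the AMPA subunits in cortex with 373 TPM, and Gria4 led them in cerebellum with 282 TPM.

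Of 7 metabotropic glutamate receptors tested, 2 were higher in cerebellum, among them Grm4, and Grm2, Grm3 and Grm5 were higher in cortex. Grm5 stood at 254 ± 2.2 CPM in cortex and 46.8 ± 2.6 CPM in cerebellum. Among 13 transporters of glutamate, GABA and glycine, 6 were higher in cerebellum (Slc17a6, Slc1a6, Slc32a1, Slc6a5, Slc6a9 and Slc6a11) and 3 in cortex (Slc17a7, Slc17a8 and Slc1a2), and 4 of the 6 and 2 of the 3 were called in the same direction in Ctrl. Slc6a11, a GABA transporter of astrocytes, had 189 ± 7.6 CPM in cortex and 415 ± 3.9 CPM in cerebellum, but was higher in cortex in Ctrl, at 240.5 ± 6.1 CPM and 69.3 ± 1.7 CPM (interaction 2.95, adjusted p = 1.04e-27 by edgeR). Slc17a6, the vesicular glutamate transporter of brainstem and thalamus, read 25.1, 28.5, 23.8 and 24.1 CPM in cortex and 157, 156 and 155 CPM in Upf3b-KO cerebellum, while Ctrl cerebellum held 9.36 ± 0.48 CPM (SD, n = 4). Among 10 genes for cerebellins and their synaptic partners, only Cbln1 and Cbln3 were called, both higher in cerebellum, and the 6 tested neurexins and neuroligins were not called. Cbln2 and Cbln4 stood at 28.5 and 22.0 CPM in Upf3b-KO cortex and at 16.6 and 20.4 CPM in Upf3b-KO cerebellum, but in Ctrl both were called higher in cortex, at 23.6 and 27.5 CPM against 0.189 and 0.730 CPM (interactions 6.17 and 5.14, adjusted p = 1.08e-21 and 4.42e-22 by edgeR).

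Among regulators of RNA, the NMD factors and the splicing regulators were counted. Of 18 NMD factors 0 were called in either direction by edgeR, and the same count by DESeq2, while 11 had an unadjusted p under 0.05. Their median log2 difference was 0.10, and Upf1, the central helicase of NMD, stood at 57.4 CPM in cortex and 75.4 CPM in cerebellum. For Upf3a, the paralog of Upf3b, the levels were 45.5 ± 3.3 CPM (SD, n = 4) and 30.6 ± 0.83 CPM (SD, n = 3), a difference below 2-fold. Of 28 splicing regulators of neurons, 1 was higher in cerebellum, 5 were higher in cortex and 22 were not called, beside the 6.92% and 15.7% of all genes. Celf5, an RNA-binding protein of the CELF family, was highest in cortex relative to cerebellum, at 66.3, 58.5, 64.1 and 62.2 CPM against 5.41, 6.13 and 6.02 CPM (log2 difference −3.43, SE 0.062), and Celf2, Celf3, Celf4 and Khdrbs3 were also higher in cortex. Nova1, which controls exons of synaptic genes, was the member higher in cerebellum, with 34.5 ± 1.3 and 79.9 ± 0.12 CPM.

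Lists of other structures also separated the knockout regions, and their levels differed between the genotypes. All 18 listed genes of brainstem and deep nuclei were higher in Upf3b-KO cerebellum, with a median of 4.23. Their summed level was 90.4 to 98.5 CPM in Upf3b-KO cortex, 1078 to 1096 CPM in Upf3b-KO cerebellum and 193.5 to 197 CPM in Ctrl cerebellum, where the Hox genes, Chat and Slc18a3 were at or near 0. Of 14 choroid plexus genes, 5 were higher in cortex and 9 were not called, but their sum was 5321 to 5379 CPM in Upf3b-KO cortex and 3521 to 3538 CPM in Upf3b-KO cerebellum, against 256 to 258 CPM and 216 to 219 CPM in the Ctrl regions. Ttr, the thyroid hormone carrier secreted by choroid plexus, alone stood at 1834, 1841, 1887 and 1829 CPM and at 1215, 1215 and 1198 CPM, against Ctrl means of 7.94 and 2.05 CPM. The part of such tissue in any result here was not tested.

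Striatal genes lay on the cortical side, with 11 of 16 higher there and a median of −1.95. Drd1, the D1 dopamine receptor, stood at 43.9, 43.3, 42.2 and 44.9 CPM in Upf3b-KO cortex and 0.803, 0.369 and 0.940 CPM in Upf3b-KO cerebellum, with 13.3 ± 0.92 CPM (SD, n = 4) in Ctrl cortex. The striatal sum was 1213 to 1232 CPM in Upf3b-KO cortex and 461 to 472 CPM in Upf3b-KO cerebellum. In Ctrl the order of the sums was reversed, with 300.5 to 317 CPM in cortex and 464 to 476 CPM in cerebellum. Of the 11 genes, 8 were called higher in cortex in Ctrl as well. The part of striatal RNA in the cortical calls was not tested. Male germ cell genes were higher in cortex in 15 of 19 cases and in cerebellum in 1, Sycp1, with a median of −3.54. Their sum was 294 to 299 CPM in Upf3b-KO cortex and 86.1 to 90.0 CPM in Upf3b-KO cerebellum. In Ctrl it was 87.7 to 92.4 CPM in cortex and higher in cerebellum, at 118 to 121 CPM. Of the 15 genes, 9 were called higher in cortex in Ctrl as well. Motile cilium genes were higher in cortex in 6 of 11 cases.

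Among glia and blood, microglial genes were higher in cortex in 9 of 10 cases, with a median of −1.34. P2ry12, the purinergic receptor of resting microglia, stood at 99.6 to 101 CPM in 3 cortical libraries and at 103.5 CPM in the other, against 31.8, 32.5 and 33.3 CPM in cerebellum, and Ctrl means were 102 and 26.3 CPM. Astrocyte genes divided, with 5 of 12 higher in cerebellum, among them Aqp4 and S100b, and 2 higher in cortex, Slc1a2 and Mfge8. Of 12 endothelial and pericyte genes 0 were called by edgeR or by DESeq2, and 11 had an unadjusted p under 0.05. Of 13 oligodendrocyte genes 1 was called, the progenitor receptor Pdgfra, at 95.5 ± 1.5 CPM in cortex and 47.2 ± 2.3 CPM in cerebellum, a call that was lost without Upf3b-KO cerebellum replicate 3. All 6 red cell genes were higher in cerebellum, by a median of 2.5, with a sum of 422 to 433 CPM in cortex and 2404 to 2453 CPM in cerebellum. Of 13 thalamic and hypothalamic genes tested, 4 were higher in cerebellum and 3 in cortex, and of 8 olfactory bulb genes, 3 lay on each side.

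At the level of single transcripts, 46112 were tested, of which 1527 (3.31%) were higher in Upf3b-KO cerebellum and 3110 (6.74%) higher in Upf3b-KO frontal cortex. To ask which isoforms differed apart from the level of their gene, the share of each transcript in its gene (counts per kilobase of annotated length) was compared. Of 26889 transcripts of 9293 genes, 391 (1.45%) differed in usage at an adjusted p under 0.01 (edgeR's diffSpliceDGE) and by at least 10 percentage points, 169 with a larger share in cerebellum and 222 with a larger share in cortex. The regions did not overlap in 390 of these, but overlap was not counted over all transcripts tested, so this count has no background beside it. The calls came from 289 genes, 3.11% of those tested, and 179 of the 289 were not called as genes.

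By type, usage calls were found for 344 of 19501 protein-coding transcripts (1.76%). Transcripts annotated for decay through NMD were called in 11 of 2021 cases (0.544%), 8 with a larger share in cerebellum and 3 in cortex, and retained-intron transcripts in 13 of 2607 (0.499%), 7 and 6. The 10 genes with the largest shifts among those with at least 10 CPM in both regions were Cacna1g, Syne1, Rgs12, Atp2a3, Patj, Ptprr, Iqsec2, Kcnip1, Caly and Mrtfa. In 8 of these 10 genes the transcripts compared differed in their first splice site, as in 11 of 21 pairs from the list of brain isoforms below. The 8 include models that start inside the gene, as for Iqsec2 and Syne1, and the share over all usage calls was not counted. In the other 2, Atp2a3 and Cacna1g, the transcripts shared the first and last splice sites.

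The genes with another first splice site included Patj, a scaffold protein of cell polarity. Its transcript of 18 exons, which starts inside the gene, took 19.8%, 38.0%, 26.8% and 25.7% of Patj in cortex and 94.1%, 95% and 93.8% in cerebellum (adjusted p = 5.68e-05 by diffSpliceDGE). The transcript of 44 exons took 32.0 ± 4.55% (SD, n = 4) in cortex and 0.134 ± 0.232% (SD, n = 3) in cerebellum, a call that was lost in 5 of the 7 fits that left out a library. Kcnip1, which encodes a partner of A-type potassium channels, used different first exons in the regions. A transcript at 63.0%, 61.9%, 57.5% and 51.0% in cortex stood at 5%, 6.70% and 9.40% in cerebellum, and a second one stood at 0%, 0%, 0% and 3.74% in cortex and 65.2%, 59.5% and 59.4% in cerebellum. The second was called (adjusted p = 9.37e-07 by diffSpliceDGE) and the other was not (adjusted p = 0.0121 by diffSpliceDGE).

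Ptprr, a tyrosine phosphatase that acts on MAP kinases, and Caly, a vesicular protein that binds clathrin light chain, followed. A 13-exon form of Ptprr was at 0% to 3.53% in cortex and 61.6% to 71.5% in cerebellum. The form of Caly with the splice site of its first exon changed took 15.5 ± 2.7% in cortex and 75.8 ± 1.03% in cerebellum, and both forms have a coding length of 678 bases. For Rgs12, a regulator of G protein signaling, the 15-exon form had 70.3 ± 6.25% in cortex and 2.12 ± 3.67% in cerebellum. Syne1, which encodes a nuclear envelope protein, lost a 19-exon form annotated with a retained intron, from 70.7 ± 1.06% to 0.626 ± 1.08%. For Iqsec2, an exchange factor of excitatory synapses, the transcript with the larger share in cerebellum, 21.7 ± 6.80% against 85.6 ± 2.40%, is a 959-base model of 3 exons. For Mrtfa, a coactivator of serum response factor, the 13-exon form took 45.9%, 69.2%, 68.7% and 52.5% in cortex and 0%, 9.81% and 0% in cerebellum, a call that was lost in 4 of the 7 fits that left out a library, and the 14-exon form was not called.

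The forms of Atp2a3 and Cacna1g differ inside the transcript. Atp2a3 encodes the calcium pump SERCA3, and the form that skips its 73-base exon 21 took 24.6%, 25.3%, 6.90% and 22.6% in cortex and 88.2%, 85.9% and 87.7% in cerebellum (adjusted p = 0.000322 by diffSpliceDGE). Cacna1g encodes the T-type calcium channel of Purkinje cells. Its form without a 69-base and a 54-base exon, which also uses another splice site at the exon before the latter, was at 0% to 0.00221% in cortex and at 73.2%, 71.3% and 74.6% in cerebellum (adjusted p = 1.37e-09 by diffSpliceDGE). The form with both exons was at 0% in cerebellum but took 4.43%, 47.0%, 10.5% and 57.6% in the cortical libraries, an SD of 26.4 points at a level of 13.5 CPM for the whole gene, and its call was lost without cerebellum replicate 3 or 4.

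Of a list of 60 genes known for isoforms in brain, 58 could be tested for usage and 21 of these (36.2%) had a call, beside 3.11% of all genes tested. The list was chosen with earlier results of these data known, so that this share is a description. Gria1, whose flip and flop junctions are printed above, showed the plainest exchange, since the gene was at 419 and 401 CPM in cortex and cerebellum. The flip transcript took 48.7%, 53.5%, 49.0% and 47.1% of Gria1 in Upf3b-KO cortex and 87.5%, 85.6% and 85.2% in Upf3b-KO cerebellum (adjusted p = 8.58e-07 by diffSpliceDGE). The flop transcript stood at 51.3%, 46.2%, 50.1% and 52.3% against 11.8%, 13% and 13.2% (adjusted p = 4.69e-10 by diffSpliceDGE). In Ctrl the mean flip share was 43.0% in cortex and 93.9% in cerebellum.

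Grin1 was also level as a gene and changed in form. The transcript with N1 and without C1 took 36.9%, 35.5%, 36.6% and 29.9% in cortex and 69.0%, 71.4% and 66.9% in cerebellum (adjusted p = 1.03e-08 by diffSpliceDGE). The transcript with C1 and without N1 took 22.7%, 25.3%, 25.8% and 27.4% against 3.04%, 2.20% and 2.78% (adjusted p = 1.55e-14 by diffSpliceDGE). Both shares lay well apart between the regions, and Ctrl means for the former were 22.9% and 59.2%.

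Clta, Dnm1 and Rims1 were further genes of the list with a call. Clta without its 36-base exon had 10.3 ± 1.13% in cortex and 38.4 ± 0.613% in cerebellum (adjusted p = 0.00194 by diffSpliceDGE), which was lost in 4 of the 7 fits that left out a library, and the form with that exon had 70.2 ± 3.04% and 41.5 ± 3.90% without being called (adjusted p = 0.0548 by diffSpliceDGE). For Dnm1, dynamin, which cuts endocytic vesicles from the membrane, a form with a 37-base exon that holds the stop codon had 13.8 ± 1.65% in cortex and 28.5 ± 2.73% in cerebellum. For Rims1, which organizes the vesicle release site, a 516-base model inside the gene was at 0% in cortex and 15.4%, 9.71% and 10.9% in cerebellum. These are shares per length, and the model held only 1.87 CPM in cerebellum, against 136 CPM for the whole gene.

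The Ncam1 transcript of 16 exons took 41.8%, 41.0%, 42.1% and 40.2% in cortex and 64.3%, 64.6% and 65.1% in cerebellum, while the 18-exon form, which ends in a different last exon, had 27.2 ± 1.38% in cortex and 5.81 ± 0.769% in cerebellum. In Nrxn3, a presynaptic adhesion gene, a short form that starts inside the gene had 3.22 ± 0.245% in cortex and 26.4 ± 1.62% in cerebellum. Map2 was higher in cortex as a gene, at 1693 against 801 CPM, and its form with the 93-base exon had 6.79 ± 0.369% in cortex and 18.8 ± 1.98% in cerebellum (adjusted p = 5.04e-14 by diffSpliceDGE). Dlg4, the scaffold PSD-95, had 81.9 ± 2.45% of its main form in cortex and 45.0 ± 8.59% in cerebellum, with 37.6%, 54.4% and 43.1% in the cerebellar libraries, and this call was lost without cerebellum replicate 2. For ion channels, a form of the calcium-activated potassium channel gene Kcnma1 had 5.13 ± 1.53% and 37.0 ± 6.05%, and a form of the sodium channel partner Fgf13 had 55.3 ± 0.748% and 24.4 ± 5.67%, the latter call being lost without cerebellum replicate 2. The full-length Gria4 transcript of 17 exons took 15.6 ± 3.16% in cortex and 46.7 ± 1.21% in cerebellum. The other genes with a call were Gria2, Itpr1, Tpm1, Kcnip4, Atp2b2, Shank3 and Camk2d. Of the 7 fits that left out a library, a call was lost in 3 for Kcnip4, in 6 and 5 for the 2 transcripts of Atp2b2, in 6 for Shank3 and in 5 for Camk2d.

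**Figure D4:**
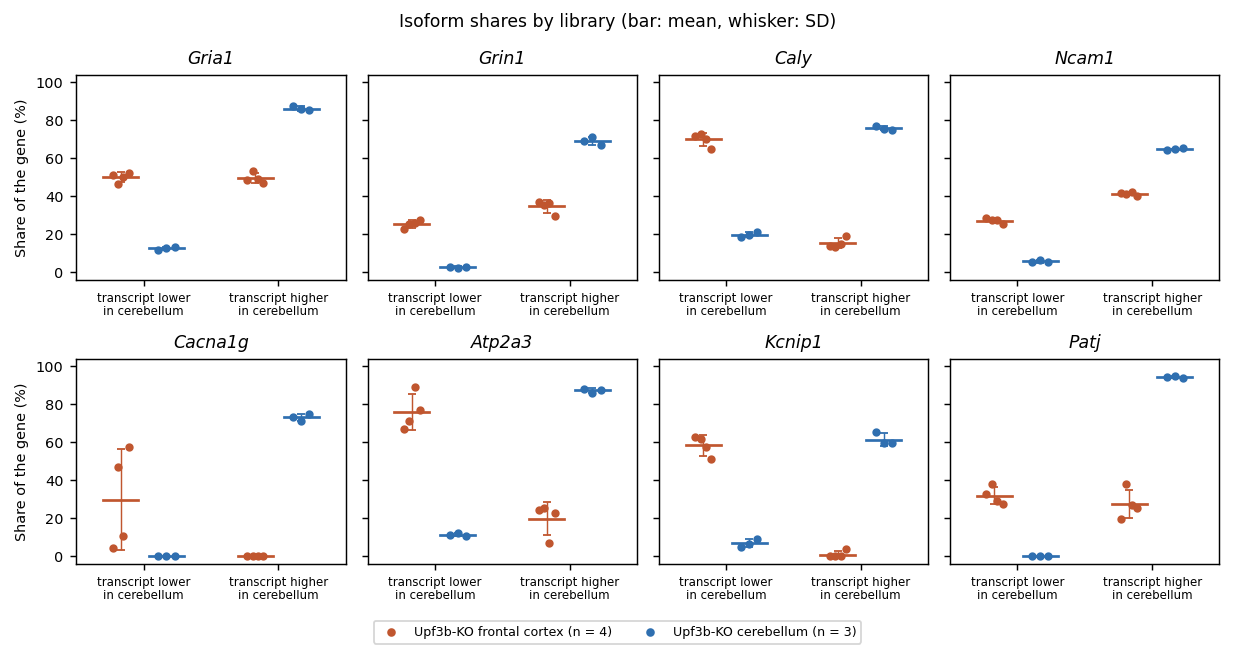
Share of the gene in percent (y axis) for the transcript lower and the transcript higher in cerebellum at 8 genes, with 1 point per library, orange for Upf3b-KO frontal cortex (n = 4) and blue for Upf3b-KO cerebellum (n = 3), the bar at the mean and the whisker at 1 SD. Gria1, Grin1 and Ncam1 show tight groups, while the cortical shares of the lower Cacna1g transcript run from 4.43% to 57.6%.

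To see which regional differences were also present with Upf3b, the same test was run on the 8 Ctrl libraries, which share no sample with the knockout comparison. Of 17521 genes tested there, 1608 (9.18%) were higher in Ctrl cerebellum and 2794 (15.9%) in Ctrl frontal cortex. In the same direction in both genotypes were 817 cerebellar calls, 62.2% of the knockout and 50.8% of the Ctrl calls, and 1712 cortical calls, 57.4% and 61.3%. Opposite directions were found for 57 genes. Most identity lists kept their side, with 17 of 17 granule cell calls, 17 of 17 Purkinje cell calls on the cerebellar side and 23 of 24 telencephalic factors also called in Ctrl. Of the 18 brainstem genes higher in Upf3b-KO cerebellum, 3 were called higher in Ctrl cerebellum and 3 higher in Ctrl cortex.

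Calls in one genotype alone do not show a difference between genotypes, so the difference itself was tested as the interaction of region and genotype over 15 libraries. Of 19831 genes, the regional difference lay more toward cerebellum in Upf3b-KO than in Ctrl for 1261 (6.36%) and more toward cortex for 603 (3.04%). Among Purkinje cell genes 13 of 20 shifted toward cortex and none toward cerebellum, with a median interaction of −1.39 on the log2 scale, and among granule cell genes 6 of 19 and none. Car8, at 1115 CPM in Upf3b-KO and 3198 CPM in Ctrl cerebellum, had an interaction of −2.14 (adjusted p = 4.42e-22 by edgeR), and Calb1, at 1010 and 2601 CPM, one of −1.40 (adjusted p = 5.45e-24 by edgeR). Summed levels were 3873 to 3879 CPM in Upf3b-KO and 7068 to 7093 CPM in Ctrl cerebellum for granule cell genes, and 6971 to 7013 CPM and 16600 to 16740 CPM for Purkinje cell genes. Brainstem, oligodendrocyte and choroid plexus sums moved the other way in the same libraries, and their part in the interaction was not tested.

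Brainstem genes shifted toward cerebellum in 12 of 18 cases. Slc17a6 did so with an adjusted p of 5.16e-25 by edgeR, and Slc6a5 with an adjusted p of 0.00494 by edgeR. Forebrain lists held genes that moved this way too, with 9 of 22 projection neuron genes and 7 of 28 telencephalic factors. Lamp5, a membrane protein of upper-layer and inhibitory neurons, stood at 142 CPM in Upf3b-KO cortex and 122, 121 and 125 CPM in Upf3b-KO cerebellum, against 98.0 ± 1.1 CPM and 0.506 ± 0.21 CPM (SD, n = 4) in the Ctrl regions (adjusted p of the interaction 2.35e-28 by edgeR). Sst, somatostatin, had 122 ± 4.5 and 38.2 ± 0.19 CPM in the knockout regions and 182 ± 3.7 and 0.971 ± 0.065 CPM in the Ctrl ones (adjusted p of the interaction 1.86e-27 by edgeR). The part of RNA from other structures in these values was not tested.

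**Figure D5:**
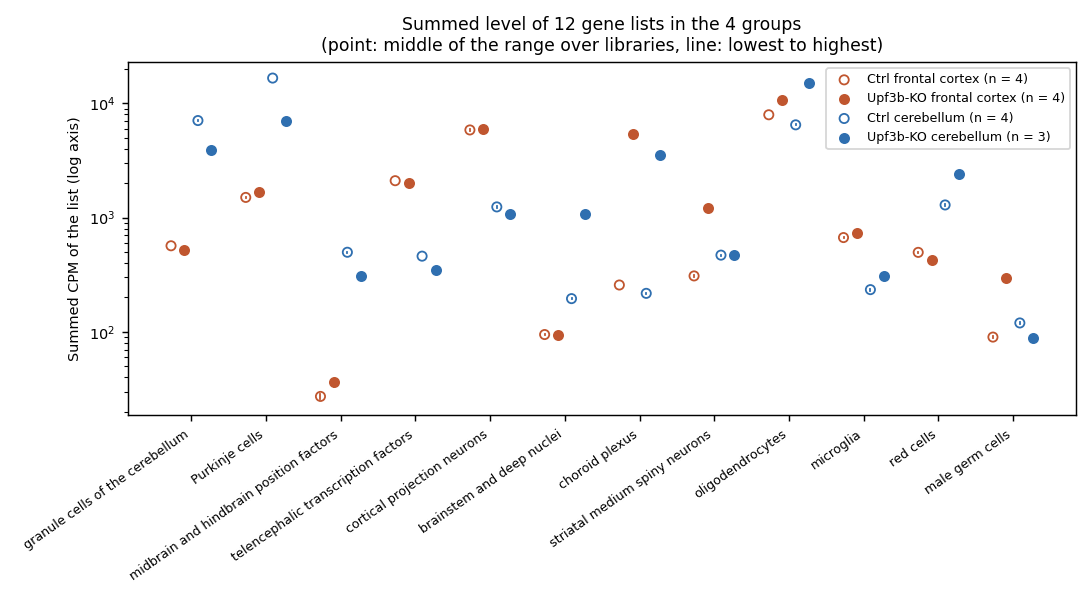
Summed CPM of 12 gene lists (y axis, log scale) in Ctrl (open) and Upf3b-KO (filled) libraries of frontal cortex (orange, n = 4 each) and cerebellum (blue, n = 4 Ctrl and n = 3 Upf3b-KO), with the point at the middle and the line from the lowest to the highest library. Granule and Purkinje cell sums are higher in Ctrl than in Upf3b-KO cerebellum, and brainstem, choroid plexus and oligodendrocyte sums are higher in Upf3b-KO cerebellum than in Ctrl cerebellum.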

How the data were processed

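RNA of frontal cortex and cerebellum was depleted of ribosomal RNA, amplified with SMART-Seq chemistry and read as pairs. The authors aligned reads with STAR 2.5.2b to GRCm39 and deposited expected counts per Ensembl transcript from RSEM, which divides reads among similar transcripts, so that single-isoform values depend on that division. Strand use in counting was not given in the sources used here, so overlapping genes are uncertain. Both matrices were joined by identifier. GENCODE vM39 matched 141102 of 142435 transcripts, whose counts were rounded and summed to 55266 genes. No column lacked a sample.

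Counts were analysed in R 4.3.3 with edgeR 4.0.16 and limma 3.58.1: filterByExpr (minimum count 10, minimum total 15), TMM scaling, and the quasi-likelihood test, with p-values adjusted after Benjamini and Hochberg. Usage was tested with diffSpliceDGE on transcripts with at least 5% of their gene in a region. SE is the absolute log2 difference divided by the square root of F. EBSeq, IsoformSwitchAnalyzeR and the gene table from featureCounts were not used here. Fits were tested on simulated counts with 200 changed features.

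Named genes were the 10 called in each direction with the largest difference among those with at least 20 CPM in the higher region and no overlap between regions (models without a proper symbol left out), list members, the 10 genes with the largest usage calls, called genes of the isoform list, and the 5 interaction calls in each direction with the largest size among genes with at least 20 CPM in a knockout region. The members, the 27 lists (426 symbols) and the 60 isoform genes were chosen with earlier results of these data known. Alternatives were DESeq2 1.42.0, median-of-ratios scaling, other filters, thresholds, shares and samples, voom for usage, the replicate number as a block, and each library left out in turn. Ratios of sparse counts have exact counting intervals at 95%, which cover only counting error, because copies of 1 molecule cannot be recognised without identifiers. Some genes that these rules or lists name are not reported here.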

Additional observations from a re-analysis of the deposited data

Results flagged for a closer look

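Among 4 libraries of Upf3b-KO frontal cortex, 1 library stood far from the other 3 in 4 of 47 groups of values tested, and chance gives such a flag in about 1 of 20. The gap to the nearest library, divided by the whole range, was 1 for Hoxb5 and 1 for Nrk, each with counts in a single library, and 0.93 for the summed CPM of metabotropic glutamate receptors and 0.874 for that of cerebellins, neurexins and neuroligins, each above the critical value of Dixon's test for 4 samples.

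Upf3b-KO cerebellum replicate 1 held 64981 counts and entered no comparison of the report, only the alternatives that include it. Of its 27 list sums, 4 lay above the Ctrl cerebellum libraries with their whole counting interval, 4 more lay above with an interval that overlaps Ctrl, and 11 lay below with their whole interval. Choroid plexus genes summed to 3390 CPM (95% exact Poisson interval 2950 to 3860) against 216 to 219 CPM in Ctrl cerebellum. Brainstem genes summed to 877 CPM (664 to 1140) against 194 to 197 CPM. Oligodendrocyte genes summed to 14700 CPM (13800 to 15600) against 6440 to 6550 CPM, and red cell genes to 2540 CPM (2170 to 2960) against 1260 to 1330 CPM. The sums of splicing regulators, microglia, motile cilium and male germ cell genes were the others above, at 2990, 323, 38.8 and 123 CPM. Below lay granule cell genes, at 3660 CPM (3210 to 4160) against 7070 to 7090 CPM, Purkinje cell genes, at 6480 CPM (5870 to 7130) against 16600 to 16700 CPM, and Bergmann glia genes, at 2820 CPM (2420 to 3260) against 5210 to 5220 CPM, among others.

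For 10 genes named by size among those with at least 20 CPM in a knockout region, the regional difference itself differed between the genotypes, by edgeR's test of the interaction over 15 libraries. Toward cerebellum in Upf3b-KO lay Chodl (adjusted p = 1.18e-15), Crhbp (adjusted p = 5.97e-19), Dlk1 (adjusted p = 3.12e-17), Kcng1 (adjusted p = 5.78e-19) and Lhx2 (adjusted p = 1.92e-12). In these 5 the Ctrl cerebellum was at or close to 0, as for Lhx2, a cortical patterning factor, with 0.907, 0.880 and 1.12 CPM in Upf3b-KO cerebellum and 0 in Ctrl. Toward cortex lay Cnpy1 (adjusted p = 0.000715), Clic6 (adjusted p = 1.19e-21), Slc4a5 (adjusted p = 2.16e-10), Crtam (adjusted p = 1.17e-08) and A2m (adjusted p = 8.79e-24). Clic6 and Slc4a5 are known from choroid plexus and stood at 65.2 and 23.6 CPM in Upf3b-KO cortex against 1.26 and 0.0764 CPM in Ctrl cortex. The part of other tissue in these values was not tested.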

How the results depend on the processing

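No named gene, interaction or isoform share that was called in the main fit changed direction under any alternative run. Changes of sign in members that were not called were not counted. Of 8092 gene values 7865 kept their side of the threshold, and so did 620 of 738 isoform shares and 120 of 120 interaction values. For genes, 1313 calls in cerebellum became 2410 above 1.5-fold, 874 with glmTreat and 6623 at an adjusted p under 0.05 without a fold limit, where cortical calls became 6849, listed genes called went from 238 to 389, and interaction calls from 1864 to 9526. Transcript calls were 2468 and 5017 with DESeq2, 686 and 1590 with glmTreat, 6082 and 7396 at an adjusted p under 0.05 without a fold limit, 2456 in cerebellum above 1.5-fold, and 859 in cerebellum with the shallow library included. Usage calls were 200 at 20 points and 977 with voom. With shares of raw counts in place of counts per length they were 356, and 7 of 57 named isoform shares lost their call. Same-numbered samples of the regions did not deviate together (correlations of 0.0923, −0.0242 and −0.00644), and the labels do not say which libraries share a mouse. With the replicate number as a block, on 6 knockout libraries or, for the interaction, within genotype on 15, the counts were 1246 and 2765 genes, 237 listed genes, 655 and 1179 transcripts, 228 usage calls and 1671 interaction calls, and 17 of 62 named isoform shares lost their call (in Atp2a3, Atp2b2, Cacna1g, Camk2d, Clta, Fgf13, Gria4, Iqsec2, Kcnip4, Mrtfa, Patj, Rims1 and Syne1). Leaving out each library in turn gave 1267 to 1297 and 2819 to 2963 genes, 236 to 239 listed genes, 1075 to 1421 and 2523 to 2662 transcripts, 330 to 358 usage calls and 1775 to 1824 interaction calls, and 3 named genes (Aqp1, Hopx and Pdgfra) and 15 isoform shares lost their call in at least 1 such fit. Without the genes listed for other structures, germ cells and red cells, an alternative chosen after seeing the data, 1287 and 2935 genes were called. Where no cause is shown by fewer samples or another threshold, the cause was not tested. Depth limited genes near 3 counts per library.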
